A study of Mus musculus with 6 samples.

Results

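The parathyroid hormone receptor pathway of skeletal cells was examined in newborn mice through 10 genes: the ligand gene Pthlh, the receptor gene Pth1r, the stimulatory G protein gene Gnas, the histone deacetylase genes Hdac4 and Hdac5, the transcription factor genes Mef2a, Mef2c and Mef2d, and the kinase genes Sik1 and Sik2. They were taken by gene symbol from 23364 symbols in the deposited table, and RPKM (reads scaled to transcript length and sequencing depth) was summed over the 22 transcripts listed for them. RNA-seq had been done on 3 osteoblast libraries and 3 chondrocyte libraries, all from C57BL/6 mice at postnatal day 1. The osteoblasts came from calvaria, the bones of the skull roof, were released with Liberase TM, were sorted for green fluorescent protein (GFP) and are labelled Sp7 positive. Sp7, or Osterix, is a transcription factor without which no bone forms. The chondrocytes came from rib cartilage, were released with Pronase and Collagenase D and are labelled WT. The descriptions tie GFP to Sp7 without giving the allele or promoter, and no sort is named for the chondrocytes. Cell type, site, sorting, genotype and enzyme all go with the group and cannot be told apart. No label says that the replicates came from separate animals, so p-values measure the spread between these samples, which may be technical.

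PTH and the related peptide PTHrP, the product of Pthlh, act on the same receptor, which couples to the stimulatory G protein and raises cyclic AMP. Cyclic AMP activates protein kinase A, which phosphorylates the salt-inducible kinases (Sik). Sik kinases otherwise phosphorylate class IIa histone deacetylases and hold them in the cytoplasm. In the nucleus these deacetylases bind Mef2 factors and repress their targets. In the growth plate PTHrP keeps chondrocytes from enlarging, Hdac4 acts in the same direction, and Mef2c and Mef2d drive enlargement. In bone PTH acts on osteoblasts and osteocytes, where Mef2c acts at an enhancer of Sost.

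The cell labels were checked against markers. All 7 osteoblast markers, among them Col1a1, Ibsp and Dmp1, had the higher mean in osteoblasts, and all 6 chondrocyte markers, among them Col2a1, Acan and Sox9, had it in chondrocytes. Summed osteocyte markers (Sost, Dmp1, Phex, Mepe) were 99.8 to 180.2 RPKM in osteoblast libraries and 0.272 to 0.295 RPKM in chondrocyte libraries. Chondrocyte replicate 3 stood apart in summed osteoblast markers (7779 RPKM, against 2285 and 2277 RPKM in replicates 1 and 2). Nearly all of that sum was Col1a1 (7765 RPKM), and no other osteoblast marker was highest there among the chondrocyte libraries. The fibroblast and tendon markers of replicate 3 summed to 2649 RPKM, against 1094 and 691 RPKM in replicates 1 and 2. That sum was 2296 to 3290 RPKM in osteoblast libraries, where 5 of the 6 markers had the higher mean. Chondrocyte replicate 2 stood apart in summed hypertrophic markers (75.3 RPKM, against 23.6 and 7.13 RPKM in replicates 1 and 3). Most of that was Col10a1 (58.4 RPKM). The hypertrophic sum was 173 to 234 RPKM in osteoblasts, where 3 of the 4 genes, among them Mmp13 and Panx3, had the higher mean. Without chondrocyte replicate 2 or replicate 3 the same 7 members were called as with all 6. Working back from the steps of low RPKM values, the depth of each library was estimated: 1 RPKM in a 2 kb transcript stood for 53.9 to 71.7 reads. Most genes of the table were higher in osteoblasts on the deposited scale. The median log2 difference, osteoblast minus chondrocyte, over the 11218 tested genes was 0.43, and it was 0.01 after median-of-ratios scaling and 0.06 after upper-quartile scaling. Changes are therefore also given relative to that median.

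All 10 genes passed the expression filter of at least 1 RPKM in at least 3 libraries. On log2(RPKM + 1), limma with Benjamini-Hochberg adjustment over all tested genes called 5 of them higher in osteoblasts at adjusted p under 0.05: Pth1r, Mef2c, Hdac5, Sik1 and Mef2a. Of all tested genes 69.0% were called, and 55.5% were called in that direction. Gnas and Mef2d were called higher in chondrocytes, where 13.5% of all tested genes were called. Pthlh, Hdac4 and Sik2 were not called. With median-of-ratios scaling, 3 members were called higher in osteoblasts (Pth1r, Mef2c and Hdac5) and 4 higher in chondrocytes (Gnas, Mef2d, Hdac4 and Sik2), against 30.4% and 30.9% of all tested genes. With upper-quartile scaling the same members were called, against 33.0% and 28.4%. The values of the groups did not overlap for 7 members, against 75.6% of all tested genes. The median log2 difference of the members was 0.30, and 5 of the 10 lay above the all-gene median. Relative to the all-gene median Gnas stood at -1.09, Mef2d at -0.74, Hdac4 at -0.60, Pthlh at -0.49 and Sik2 at -0.39.

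**Figure D1:**
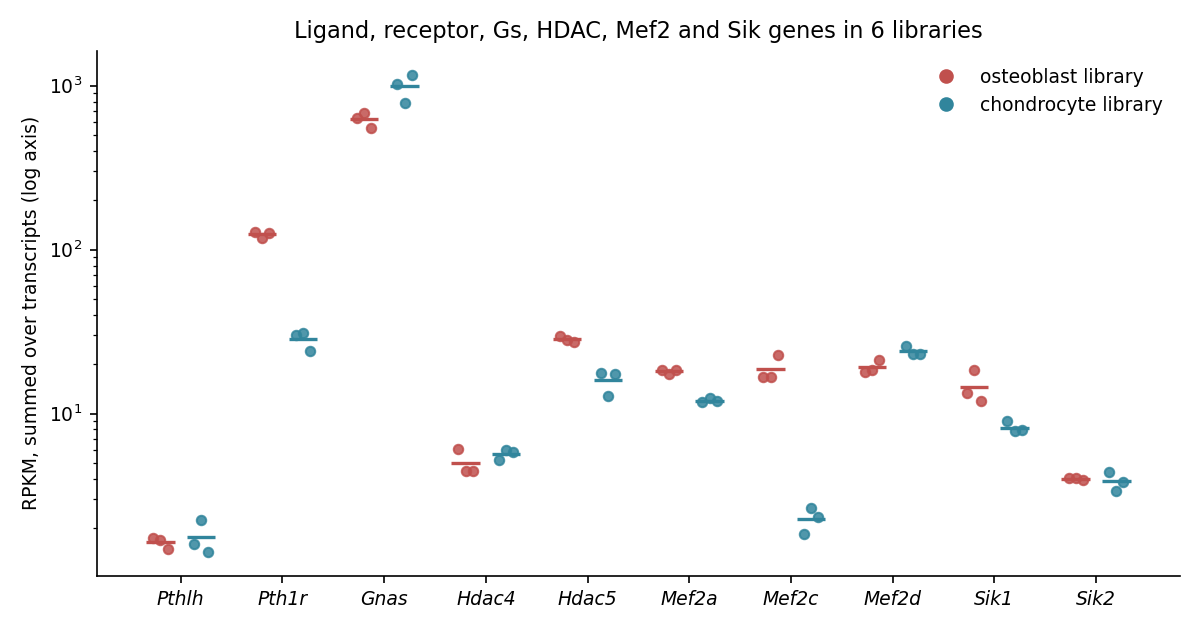
RPKM summed over transcripts, on a log axis, for each of the 10 genes in each osteoblast library (red points) and chondrocyte library (blue points), with bars at the group means. Pth1r (124 against 28.4 RPKM) and Mef2c (18.7 against 2.28 RPKM) show the widest gaps between groups, and Pthlh, Hdac4 and Sik2 overlap.

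Some of the largest differences lay between transcripts of a gene. Gnas and Pth1r each have several start sites, Gsα (the protein of the Gnas gene that couples the receptor) has forms with and without a cassette exon, and Mef2c and Hdac5 are members whose promoter windows differ in base make-up. The deposited table carries no coordinates. The sequences below are RefSeq promoter windows or annotated exons of build GRCm38, which is not the build of the authors' alignment, and window bases in annotated exons of the gene are not shown. The window of the Nesp55 start of Gnas (chr2:174284070-174284319, plus strand) is shown because that start held most of the RPKM by which Gnas differed between the cell types. Capitals mark a GC box (GGGCGG on either strand), which 32.7% of the 32851 RefSeq windows hold.
Gnas Nesp55 start: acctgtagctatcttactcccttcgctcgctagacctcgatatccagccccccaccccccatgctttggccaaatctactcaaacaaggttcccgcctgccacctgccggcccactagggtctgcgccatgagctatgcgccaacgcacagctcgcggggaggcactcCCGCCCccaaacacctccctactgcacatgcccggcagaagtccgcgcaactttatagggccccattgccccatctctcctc

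The windows of the Pth1r start sites lie at chr9:110747146-110747395 (upstream start), chr9:110743687-110743936 (middle start) and chr9:110742720-110742860 (downstream start), all on the minus strand. They are shown because the middle and downstream starts differed in share between the cell types. The 250 bases before these starts held 3, 16 and 22 CpG dinucleotides, where the median over all windows was 6. Capitals mark GC boxes and, in the upstream window, a TGACG half-site of the cyclic AMP response element on either strand, which 17.8% of windows hold.
Pth1r upstream start: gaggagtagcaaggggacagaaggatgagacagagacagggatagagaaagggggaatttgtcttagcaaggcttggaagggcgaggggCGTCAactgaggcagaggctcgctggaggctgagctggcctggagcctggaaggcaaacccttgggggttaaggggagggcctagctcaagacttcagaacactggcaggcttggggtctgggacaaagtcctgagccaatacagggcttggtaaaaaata
Pth1r middle start: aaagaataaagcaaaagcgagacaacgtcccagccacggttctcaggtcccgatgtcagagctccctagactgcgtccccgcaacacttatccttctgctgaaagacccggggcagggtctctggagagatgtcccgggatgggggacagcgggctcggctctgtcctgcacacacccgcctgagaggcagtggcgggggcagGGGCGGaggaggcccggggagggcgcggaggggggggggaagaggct
Pth1r downstream start: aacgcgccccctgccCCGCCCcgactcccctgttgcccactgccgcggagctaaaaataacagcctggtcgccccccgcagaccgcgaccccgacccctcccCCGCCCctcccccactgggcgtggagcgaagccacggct

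The long Gsα transcript carries a coding exon of 45 bases (exon 3, chr2:174336747-174336791, plus strand) that the short transcript lacks. The short transcript has 3 other bases at the junction (chr2:174341650-174341652). Both junctions are shown, with the bases that only 1 form holds in capitals.
Gsα long form: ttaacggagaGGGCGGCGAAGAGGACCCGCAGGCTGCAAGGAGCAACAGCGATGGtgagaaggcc
Gsα short form: ttaacggagaTAGtgagaaggcc

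The Mef2c window at chr13:83503784-83504033 (plus strand) is shown because it holds few CpG and the gene had the largest ratio of means among members. It held 1 CpG dinucleotide and 33.6% G and C, against a median of 52.4% over all windows. This window lies before the first exon of the less abundant Mef2c transcript, whose first 172 bases the more abundant transcript lacks. Other RefSeq windows of Mef2c, further downstream, held 6 and 4 CpG and 44.8 and 49.6% G and C. The Hdac5 window (chr11:102230173-102230422, minus strand) is shown because it was the only member window with the Mef2 box (CTA and TAG with 4 bases of any kind between), searched on both strands and found in 3.20% of all windows. Capitals in it mark that box and a GC box. Windows were found for 9 of the 10 members, 16 windows in all. A match describes letters, not binding.
Mef2c start: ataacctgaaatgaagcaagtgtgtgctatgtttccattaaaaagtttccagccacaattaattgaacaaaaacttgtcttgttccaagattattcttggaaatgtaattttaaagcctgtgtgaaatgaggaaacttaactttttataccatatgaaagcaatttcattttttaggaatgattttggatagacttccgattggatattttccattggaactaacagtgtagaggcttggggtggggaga
Hdac5 start: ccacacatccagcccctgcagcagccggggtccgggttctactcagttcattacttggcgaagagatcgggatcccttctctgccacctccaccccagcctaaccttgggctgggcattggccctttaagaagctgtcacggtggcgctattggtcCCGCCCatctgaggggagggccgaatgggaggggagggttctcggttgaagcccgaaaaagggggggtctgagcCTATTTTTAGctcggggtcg

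The ligand gene was low in both cell types. Pthlh was 1.75, 1.69 and 1.49 RPKM in osteoblast replicates 1 to 3 and 1.59, 2.26 and 1.44 RPKM in chondrocyte replicates 1 to 3, from 64 to 121 estimated reads per library. The groups overlapped, and the log2 difference was -0.05 ± 0.13 (SE, limma adjusted p = 0.738). It moved to -0.38 with median-of-ratios scaling (limma adjusted p = 0.0882) and -0.34 with upper-quartile scaling (limma adjusted p = 0.0997), called with neither. Pth, which encodes the hormone made by the parathyroid gland, was listed at the table's floor of 0.0001 RPKM in all 6 libraries. Pth2, a ligand of the second PTH receptor, and Pth2r, that receptor, stood at no more than 2 estimated reads in any library and were not tested.

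The receptor gene Pth1r was high in osteoblasts. Summed over transcripts, it was 128, 119 and 127 RPKM in osteoblasts and 30.2, 31.0 and 24.1 RPKM in chondrocytes, so that every osteoblast library exceeded every chondrocyte library. The means were 124 ± 5.18 and 28.4 ± 3.75 RPKM (SD, n = 3 each), 4.38 times higher in osteoblasts. On the log2 scale it differed by 2.10 ± 0.12 (SE, limma adjusted p = 1.14e-05), which is 1.67 above the all-gene median.

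Of the 3 start sites, the downstream one was called and the middle one was not. The transcript from the downstream start (first exon at chr9:110742226-110742719) was 101, 103 and 113 RPKM in osteoblasts and 13.7, 20.9 and 10.6 RPKM in chondrocytes. Its log2 difference was 2.78 ± 0.22 (SE, limma adjusted p = 4.27e-05 over 11762 start-site sums, 68.0% of which were called), a 7.0-fold ratio of means. The transcript from the middle start (first exon at chr9:110743455-110743686) was 27.0, 15.4 and 13.2 RPKM in osteoblasts and 16.0, 9.76 and 12.7 RPKM in chondrocytes. Those values overlapped, and the log2 difference of 0.46 ± 0.27 was not called (limma adjusted p = 0.170), falling to -0.01 with median-of-ratios scaling. The upstream start stayed under 1 RPKM in every library.

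Within Pth1r, the downstream start made up 78.5, 86.5 and 89.3% of the sum in osteoblasts and 45.4, 67.5 and 43.8% in chondrocytes. Chondrocyte replicates 1 and 3 drew more from the middle start than from the downstream one, and chondrocyte replicate 2 and all osteoblast libraries drew more from the downstream start. The mean shares were 84.8 ± 5.59% and 52.2 ± 13.2% (SD, n = 3 each). The log2 difference of the downstream share against the other transcripts was 2.36 (limma adjusted p = 0.00520 over 3051 transcript shares, 19.5% of which were called). All 3 transcripts have the same coding length of 1773 bases, so the starts differ outside the coding sequence. The upstream, middle and downstream transcripts have 214, 232 and 374 exonic bases found in no other Pth1r transcript, and only reads over those bases, or junctions to them, tell the starts apart.

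**Figure D2:**
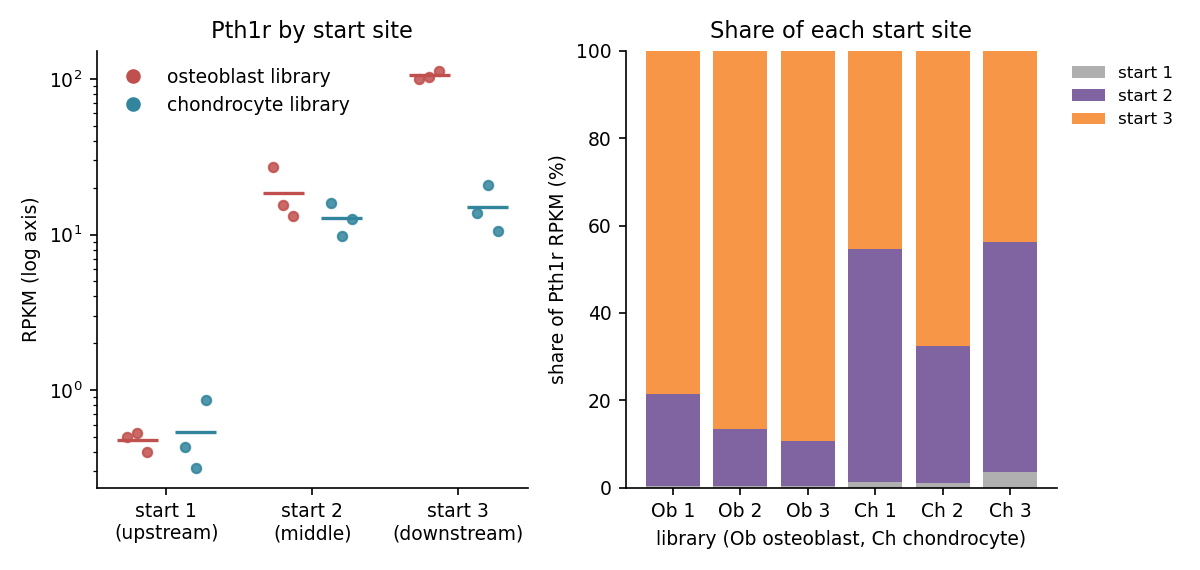
Left, RPKM of the transcript from each Pth1r start site on a log axis, with a point per library and bars at group means. Right, the share of each start site in the summed Pth1r RPKM of each library (Ob osteoblast, Ch chondrocyte), where the downstream start 3 averages 84.8% in osteoblasts and 52.2% in chondrocytes.

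Gnas was the most abundant member in both cell types, and its sum was higher in chondrocytes. The sums were 634, 682 and 554 RPKM in osteoblasts and 1024, 786 and 1169 RPKM in chondrocytes, without overlap. Their log2 difference was -0.66 ± 0.17 (SE, limma adjusted p = 0.0110). Of its starts the Nesp55 start, described next, differed by the most RPKM, and the Gsα start as a whole overlapped between the cell types on the deposited scale. Gnas is an imprinted locus whose alternative first exons are spliced to shared downstream exons: Nesp55, a chromogranin-like secretory protein made from the maternal copy; XLαs, a large form of the G protein subunit made from the paternal copy; exon 1A, a non-coding paternal transcript; and Gsα, made from both copies in most tissues. The Nesp55 start is the most upstream, with the XLαs, exon 1A and Gsα starts 13539, 43379 and 45686 bases downstream of it on GRCm38.

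Transcripts from the Nesp55 start were 407, 252 and 539 RPKM in chondrocytes and 13.8, 18.4 and 8.55 RPKM in osteoblasts. The lowest chondrocyte library, replicate 2, stood far above the highest osteoblast library. The mean was 29.4 times higher in chondrocytes, with a log2 difference of -4.77 ± 0.34 (SE, limma adjusted p = 2.81e-05), which ran from -5.07 to -4.50 with any 1 library left out. Nearly all of it was the single transcript of 13 exons that joins the Nesp55 exons to the shared exons, with 397 ± 143 RPKM against 12.6 ± 4.77 RPKM in osteoblasts (SD, n = 3 each).

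The XLαs start moved the same way. Its 4 transcripts together were 44.4, 24.7 and 42.3 RPKM in chondrocytes and 0.611, 0.773 and 0.447 RPKM in osteoblasts. The mean was 60.8 times higher in chondrocytes, and the log2 difference was -4.53 ± 0.22 (SE, limma adjusted p = 5.58e-06). Among these 4, 2 match the same annotated transcript and carry identical values. The exon 1A transcript was 7.54, 4.45 and 7.14 RPKM in chondrocytes and 0.635, 2.78 and 5.50 RPKM in osteoblasts. These overlapped, and the log2 difference of -1.08 was not called (limma adjusted p = 0.0718), but passed with median-of-ratios scaling (-1.45, adjusted p = 0.0289).

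The Gsα start overlapped between the cell types. Its transcripts summed to 619, 660.0 and 539 RPKM in osteoblasts and 565, 505 and 581 RPKM in chondrocytes. The log2 difference was 0.14 ± 0.13 (SE, limma adjusted p = 0.364) and turned to -0.37 (adjusted p = 0.0153) with median-of-ratios scaling. Within Gnas the Gsα start made up 97.3 ± 0.442% of the sum in osteoblasts and 56.4 ± 7.33% in chondrocytes, and the Nesp55 start 2.14 ± 0.580% and 39.3 ± 7.01% (SD, n = 3 each). Both shares differed (log2 differences 4.75 and -4.86, limma adjusted p = 0.000112 for each over 1000 start-site shares, 26.5% of which were called). Shares within a gene do not depend on scaling between libraries. The Nesp55, XLαs, exon 1A and Gsα starts have 1527, 3947, 267 and 429 exonic bases of their own, and the remaining bases are shared.

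The antisense transcript Nespas, which overlaps the Nesp55 exons, was 0.978, 1.04 and 0.767 RPKM in chondrocytes and 0.0898, 0.132 and 0.0988 RPKM in osteoblasts. No source used here says whether the authors counted by strand, so reads of Nespas and of Nesp55 may not be separated. Nesp55 is known from neuroendocrine tissue, and neural markers were therefore compared. The summed neural and Schwann cell markers were 36.8 to 55.3 RPKM in chondrocytes and 10.6 to 12.5 RPKM in osteoblasts, with 1 of 5 markers higher on average in osteoblasts. Most of the chondrocyte sum was S100b, at 33.8 to 53.4 RPKM, which cartilage cells also express. Sox10, which defines Schwann cells, was 0.132, 0.875 and 0.277 RPKM in chondrocytes and at most 0.109 RPKM in osteoblasts. Tubb3, a neuronal tubulin, went the other way, at 0.0392 ± 0.0190 RPKM in chondrocytes and 7.29 ± 1.20 RPKM in osteoblasts (SD, n = 3 each). The part of neural or Schwann cells in the Nesp55 value was not tested.

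The Gsα forms also differed in balance within their pair, by a comparison that cannot pass the threshold. The short form was 11.1, 10.6 and 12.7% of the Gsα pair in osteoblasts and 22.5, 19.5 and 18.9% in chondrocytes. Every chondrocyte library lay above every osteoblast library, at means of 20.3 ± 1.97% and 11.5 ± 1.11% (SD, n = 3 each). An exact two-sided permutation test gave p = 0.1, the smallest that 3 against 3 can give. Of all Gnas RPKM the short form made up 11.1 ± 1.10% in osteoblasts and 11.4 ± 1.80% in chondrocytes, with overlap. That share was not called (log2 -0.03, limma adjusted p = 0.937). The balance of the pair rests on how reads were divided among Gnas transcripts, whose downstream exons are shared. In RPKM, the short form was 69.0 ± 0.751 in osteoblasts and 112 ± 14.6 in chondrocytes, without overlap and 1.62 times higher in chondrocytes. The long form was 537 ± 60.8 and 439 ± 32.6 RPKM. The long form made up 86.1 ± 0.973% of all Gnas RPKM in osteoblasts and 44.9 ± 5.99% in chondrocytes.

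**Figure D3:**
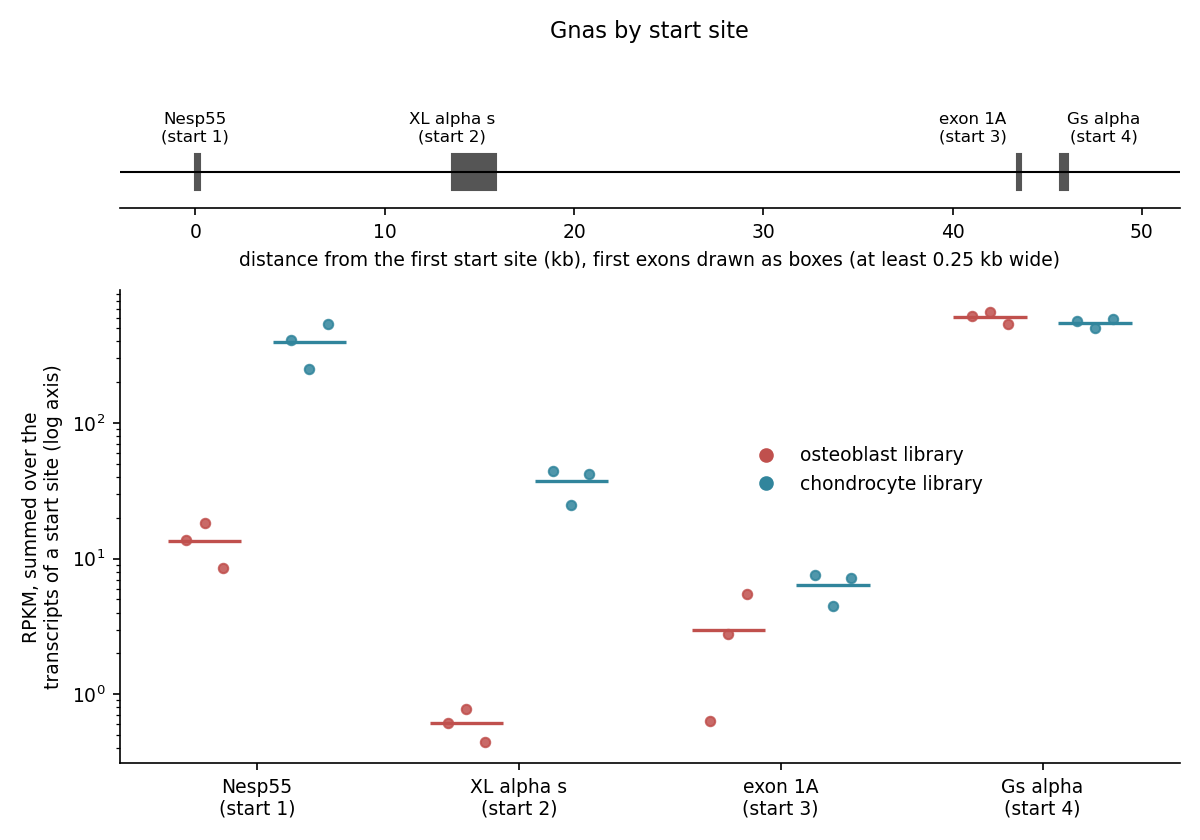
Top, the first exons of the Gnas start sites by distance in kb from the most upstream start. Bottom, RPKM summed over the transcripts of each start site on a log axis, with a point per library and bars at group means: the Nesp55 and XLαs starts are 29.4 and 60.8 times higher in chondrocytes, and the Gsα start overlaps.

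Gnal, which encodes a close relative of Gsα known from olfactory neurons, was 0.648 ± 0.130 RPKM in osteoblasts and 1.12 ± 0.119 RPKM in chondrocytes (mean ± SD of 3 libraries) and was not tested, having passed 1 RPKM in only 2 libraries.

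Of the class IIa deacetylases, Hdac5 was higher in osteoblasts and Hdac4 was not called. Hdac5 was 29.8, 28.0 and 27.4 RPKM in osteoblasts and 17.8, 12.8 and 17.4 RPKM in chondrocytes, with no overlap and with chondrocyte replicate 2 the lowest. The log2 difference was 0.81 ± 0.14 (SE, limma adjusted p = 0.00137), or 0.37 above the all-gene median. Hdac4, the deacetylase that restrains chondrocyte enlargement, was 6.06, 4.45 and 4.47 RPKM in osteoblasts and 5.21, 6.00 and 5.80 RPKM in chondrocytes. Osteoblast replicate 1 was the highest of the 6 and the other osteoblast libraries the lowest. The log2 difference was -0.16 ± 0.13 (SE, limma adjusted p = 0.297), and Hdac4 was called higher in chondrocytes with median-of-ratios scaling (-0.59, adjusted p = 0.00817). Hdac5 thus exceeded Hdac4 per length in all 6 libraries.

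Hdac7, a class IIa relative, rose in osteoblasts (9.18 ± 0.675 against 3.76 ± 1.92 RPKM, SD, n = 3 each), with a log2 difference of 1.19 ± 0.30 (SE, limma adjusted p = 0.00950). Hdac9, another relative, was near 1 RPKM in both groups and was not called (-0.11, adjusted p = 0.447). Within the class IIa sum, Hdac4 held 11.4 ± 1.44% in osteoblasts and 22 ± 5.39% in chondrocytes, and Hdac5 held 65.4 ± 0.956% and 60.5 ± 1.93% (SD, n = 3 each). Neither share overlapped between groups (exact permutation p = 0.1 each, adjusted p = 0.122 over the 11 paralog shares tested, the smallest p that this design allows being 0.1). The whole family summed to 43.5 ± 2.55 RPKM in osteoblasts and 26.4 ± 4.54 RPKM in chondrocytes. Hdac5 has 2 listed transcripts, and the more abundant held 67.1 ± 4.99% and 57.9 ± 2.27% of the gene, a difference that was not called (limma adjusted p = 0.0899).

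Mef2c had the largest ratio of mean RPKM among the members. It was 16.7, 16.8 and 22.7 RPKM in osteoblasts and 1.84, 2.65 and 2.36 RPKM in chondrocytes. All osteoblast libraries lay far above all chondrocyte libraries, and osteoblast replicate 3 was the highest. The mean was 8.21 times higher in osteoblasts, with a log2 difference of 2.58 ± 0.15 (SE, limma adjusted p = 1.20e-05), 2.15 above the all-gene median. Its 2 transcripts, whose first exons overlap and whose coding exons differ, kept similar proportions. The longer one held 75.4 ± 1.38% in osteoblasts and 81.4 ± 5.93% in chondrocytes (SD, n = 3 each), with overlapping values and no test.

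Other cell types known to express Mef2c were checked through their markers. Myeloid markers were higher on average in osteoblasts for all 7 genes found in the table and summed to 17.3 to 20.5 RPKM there and 1.37 to 7.91 RPKM in chondrocytes. Among them Lyz2 was 7.43 ± 1.58 against 1.19 ± 1.32 RPKM and the lineage marker Ptprc 0.304 ± 0.0378 against 0.0814 ± 0.0860 RPKM (SD, n = 3 each), neither with overlap. Smooth muscle and pericyte markers were mixed, with 5 of 6 having the higher mean in osteoblasts. They summed to 186 to 236 RPKM there and 103 to 132 RPKM in chondrocytes. Most of the chondrocyte sum was Cspg4, which went the other way without overlap (31.9 ± 4.82 RPKM in osteoblasts, 85.8 ± 22.3 RPKM in chondrocytes). Rgs5 (4.02 against 0.871 RPKM) overlapped between groups. Acta2, smooth muscle actin, was 129 ± 20.9 against 3.09 ± 1.26 RPKM and Cnn1, a calponin, 4.85 ± 0.458 against 0.0393 ± 0.0315 RPKM, whereas Myh11, the smooth muscle myosin, was at most 0.162 RPKM in any library. Of the osteoclast markers 5 of 6 had the higher mean in osteoblasts, with sums of 208 to 222 RPKM and 47.9 to 165 RPKM. Ctsk made up nearly all of each sum and was 2.27 times higher in osteoblasts, and Acp5 was 2.61 times higher. Mmp9 was 38.3 times and Itgb3 6.60 times higher there, and Calcr, the calcitonin receptor gene, had every transcript at the table's floor in all 6 libraries. Skeletal muscle and endothelial markers had the higher sums in chondrocytes. The muscle markers summed to 0.761 to 1.23 RPKM in osteoblasts and 9.27 to 40.2 RPKM in chondrocytes, most of it Tnnt3 (0.871 against 20.8 RPKM), and 6 of the 8 were under 0.1 RPKM in every library. The endothelial markers summed to 0.604 to 2.45 RPKM in osteoblasts and 2.44 to 5.53 RPKM in chondrocytes. The part of any of these cell types in the Mef2c value was not tested. In bulk RNA, more cells of a type and more RNA per cell cannot be told apart.

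Mef2a, a widely expressed member of the family, was 18.4, 17.4 and 18.5 RPKM in osteoblasts and 11.8, 12.4 and 11.9 RPKM in chondrocytes. The groups were tight and did not overlap, and the log2 difference was 0.55 ± 0.08 (SE, limma adjusted p = 0.000884). It stood 0.12 above the all-gene median, and it was not called with median-of-ratios scaling (0.07, adjusted p = 0.558) or upper-quartile scaling (0.13, adjusted p = 0.287).

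Mef2d, which acts with Mef2c in the growth plate, went the other way. It was 17.9, 18.5 and 21.3 RPKM in osteoblasts and 25.8, 23.1 and 23.3 RPKM in chondrocytes, without overlap. The log2 difference was -0.31 ± 0.10 (SE, limma adjusted p = 0.0297), 0.74 below the all-gene median. It missed the threshold when osteoblast replicate 1 (adjusted p = 0.116), osteoblast replicate 2 (0.103) or chondrocyte replicate 1 (0.0982) was left out. Mef2b, the remaining paralog, was at most 0.190 RPKM in any library and was not tested.

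In osteoblasts Mef2a, Mef2c and Mef2d held 32.4 ± 2.54%, 33.2 ± 2.68% and 34.3 ± 0.763% of the family sum, and their levels overlapped. In chondrocytes Mef2d held 62.5 ± 2.61%, Mef2a 31.3 ± 1.32% and Mef2c 5.94 ± 1.15% (SD, n = 3 each). The Mef2c and Mef2d shares did not overlap between groups (exact permutation p = 0.1 each, adjusted p = 0.122), and the Mef2a shares did (exact permutation p = 0.5, adjusted p = 0.55). None of these passes the threshold, which no share can at 3 against 3. The family summed to 56.2 ± 5.66 RPKM in osteoblasts and 38.5 ± 0.876 RPKM in chondrocytes.

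**Figure D4:**
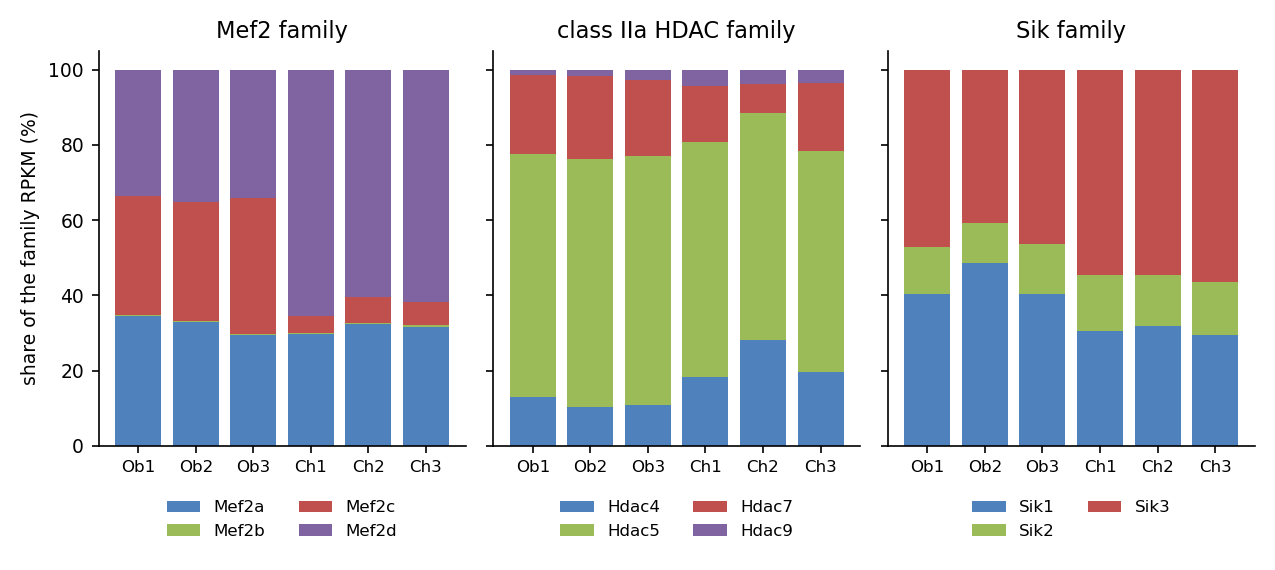
Share of each paralog, in % of the summed RPKM of its family, in each library (Ob osteoblast, Ch chondrocyte) for the Mef2, class IIa HDAC and Sik families. Mef2c averages 33.2% in osteoblasts and 5.94% in chondrocytes, and Mef2d averages 34.3% and 62.5%.

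Of the salt-inducible kinases, Sik1, whose gene is itself induced by cyclic AMP, was higher in osteoblasts. It was 13.3, 18.5 and 11.9 RPKM in osteoblasts and 8.96, 7.79 and 7.92 RPKM in chondrocytes. The groups did not overlap, and osteoblast replicate 2 was the highest. Its log2 difference was 0.73 ± 0.16 (SE, limma adjusted p = 0.00466), 0.30 above the all-gene median, and it was not called with median-of-ratios scaling (0.27, adjusted p = 0.152). Sik2, a kinase that acts downstream of PTH in bone cells, was 4.02, 4.07 and 3.96 RPKM in osteoblasts and 4.38, 3.38 and 3.84 RPKM in chondrocytes. These overlapped, and the log2 difference was 0.05 ± 0.11 (SE, limma adjusted p = 0.708), but it turned to -0.36 and passed the threshold with median-of-ratios scaling (adjusted p = 0.00869).

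Sik3, which acts in chondrocyte enlargement, was 14.9 ± 1.08 RPKM in osteoblasts and 14.9 ± 1.37 RPKM in chondrocytes (mean ± SD of 3 libraries). Its log2 difference of 0.00 (limma adjusted p = 0.982) became -0.47 (adjusted p = 0.00118) with median-of-ratios scaling. Sik1 held 43.1 ± 4.68% of the family sum in osteoblasts and 30.5 ± 1.18% in chondrocytes, and Sik3 44.8 ± 3.48% and 55.2 ± 1.05%, without overlap (exact permutation p = 0.1 each, adjusted p = 0.122).

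In order of level per length, osteoblasts had Gnas, Pth1r, Hdac5, Mef2d, Mef2c, Mef2a, Sik1, Hdac4, Sik2 and Pthlh, and neighbours from Mef2d to Sik1 overlapped in their ranges. Chondrocytes had Gnas, Pth1r, Mef2d, Hdac5, Mef2a, Sik1, Hdac4, Sik2, Mef2c and Pthlh. There Pth1r overlapped Mef2d and Mef2c overlapped Pthlh. Mef2c ranked 5 in osteoblasts and 9 in chondrocytes.

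By the nearest profile over the 6 libraries, centred on each gene's own mean log2(RPKM + 1), Pth1r lay closest to Dcxr, Orai2 and Pon2, at Euclidean distances of 0.188, 0.205 and 0.238. Mef2c lay closest to Chst13, Aaas and Lpar3 (0.259, 0.286 and 0.291), and Gnas to Ptp4a1, Eif4a2 and Phf13 (0.160, 0.203 and 0.210). Sik1 lay closest to Cyr61, Elp6 and Camk2n2, and Hdac5 to Ppp2r4, Nf2 and Ppm1f. Mef2a lay closest to Atp1b3, Desi1 and Ncl, and Mef2d to Gramd1b, Klhdc9 and Zfp488. Hdac4 lay closest to Fasn, Fv1 and Lipt2, and Pthlh to Ywhaq, Nfkbib and Ston1. Diexf and Vps39 were among the nearest profiles to Sik2. With 2 groups, such distances mostly reflect the size of the group difference.

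The rest of the pathway was described through 10 lists holding 174 genes, of which 125 were tested. Of these, 68 were called higher in osteoblasts and 22 in chondrocytes (limma), and with median-of-ratios scaling 45 and 41. Of all tested genes 55.5% and 13.5% were called in these directions, and 30.4% and 30.9% with that scaling, so the lists together lay near the background. Upstream, 3 of 31 other Gs-coupled receptors were tested. Vipr2, a receptor for vasoactive intestinal peptide, was higher in chondrocytes at 17.1 ± 9.20 RPKM against 0.511 ± 0.0504 RPKM in osteoblasts (log2 -3.46, limma adjusted p = 8.28e-05). The prostaglandin receptor gene Ptger4 (0.989 against 1.94 RPKM) was not called (log2 -0.55, limma adjusted p = 0.0503), but with median-of-ratios scaling it was called higher in chondrocytes (-0.83, adjusted p = 0.00699), so that 2 of the 3 tested receptors were. In osteoblasts Pth1r exceeded Vipr2 and Ptger4 in every library. In chondrocytes Pth1r (24.1 to 31.0 RPKM) overlapped Vipr2 (10.1 to 27.5 RPKM), which was the higher of the pair in replicate 3.

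Among adenylyl cyclases, which make cyclic AMP, 5 of 7 tested genes were higher in osteoblasts and 0 were higher in chondrocytes (limma with or without the variance trend, and 0 at an unadjusted p under 0.05), with a median log2 difference of 0.92. Of all tested genes 55.5% and 13.5% were called in these directions. Median-of-ratios scaling gave 4 and 2, against 30.4% and 30.9%. Adcy5 was 4.77 ± 0.424 RPKM in osteoblasts and 0.121 ± 0.0148 RPKM in chondrocytes (log2 2.36), Adcy7 had a log2 difference of 2.00 and Adcy6 of 1.00. Adcy2 (10.6 against 10.9 RPKM) and Adcy9 were not called. Of protein kinase A subunits, inhibitors and anchors, 10 of 15 were higher in osteoblasts, 0 in chondrocytes (likewise 0 without the variance trend and 0 at an unadjusted p under 0.05) and 5 were not called, with a median of 0.67 (6 and 2 with median-of-ratios scaling). These counts stand against 55.5% and 13.5% of all tested genes, and against 30.4% and 30.9% with that scaling. The regulatory subunit gene Prkar1b was 9.12 ± 0.851 RPKM against 0.706 ± 0.217 RPKM (log2 2.57), and the anchor genes Akap1 and Akap2 had log2 differences of 1.81 and 1.80. The anchor genes Akap11 and Akap12 were not called.

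Of 10 tested genes for phosphodiesterases, which degrade cyclic nucleotides, 5 were higher in osteoblasts and 4 in chondrocytes, with a median of 0.19. Median-of-ratios scaling gave 4 and 5. The shares of all tested genes called in these directions were 55.5% and 13.5%, and 30.4% and 30.9% with that scaling. Pde4b was 25.5 ± 7.33 RPKM in chondrocytes and 1.39 ± 0.491 RPKM in osteoblasts (log2 -3.46), and Pde3a was 13 ± 2.46 and 2.55 ± 0.759 RPKM (log2 -1.99). Pde8a was higher in osteoblasts (9.19 ± 1.12 against 3.36 ± 0.445 RPKM, log2 1.22), and Pde4d was not called. Of 11 receptor desensitization genes, 4 had higher levels in osteoblasts and 3 in chondrocytes by the test, and with that scaling 3 and 4. The same shares of all tested genes apply to them. The receptor kinase gene Grk5 was higher in chondrocytes (log2 -1.83), and the arrestin gene Arrb2 (0.95) and the receptor kinase gene Grk6 (0.90) in osteoblasts. Rgs5 and Arrb1 were not called.

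Downstream, 5 of 12 CREB family genes and coactivators were higher in osteoblasts and 2 in chondrocytes, and with median-of-ratios scaling 3 and 5. These counts stand against 55.5% and 13.5% of all tested genes, and 30.4% and 30.9% with that scaling. Creb3l1, a membrane-bound factor needed for collagen secretion in bone, was 126 ± 8.28 RPKM in osteoblasts and 25.7 ± 17.3 RPKM in chondrocytes (log2 2.44). Creb3l2, its relative in cartilage, was 17.0 ± 0.968 and 69.2 ± 6.56 RPKM (log2 -1.96). Both are known as stress sensors of the endoplasmic reticulum rather than as targets of protein kinase A. Creb1, the classic target of that kinase, had a log2 difference of 0.74, and Crtc2 and Ep300 were not called.

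Of 24 genes for the export, kinases and corepressors of class IIa deacetylases, 15 were higher in osteoblasts and 2 in chondrocytes, and with median-of-ratios scaling 7 and 7, near the 55.5% and 13.5%, and 30.4% and 30.9%, of all tested genes. Among the 14-3-3 genes, whose proteins hold phosphorylated deacetylases in the cytoplasm, Sfn (log2 1.49) and Ywhag (1.43) were higher in osteoblasts, and Ywhaq and Ywhaz were not called. Camk4, a calcium-dependent kinase gene, was higher in chondrocytes (log2 -1.44). Among 17 Mef2 partners and response genes, the members Hdac4 and Hdac5 included, 10 were higher in osteoblasts and 2 in chondrocytes. With that scaling 7 and 5 were, and the same shares of all tested genes apply. The homeobox genes Dlx5 (44.3 ± 0.397 against 1.06 ± 0.276 RPKM, log2 4.47) and Dlx6 (log2 4.0) led this list, with Sost, and Jun and Klf4 were not called.

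Of 17 genes known to respond to cyclic AMP or PTH, the member Sik1 among them, 8 were higher in osteoblasts and 5 in chondrocytes. The median log2 difference was 0.04, and median-of-ratios scaling gave 5 and 8. Over all tested genes 55.5% and 13.5% were called in these directions, and 30.4% and 30.9% with that scaling. Tnfsf11, the osteoclast-inducing ligand gene that PTH induces, was 5.91 ± 1.16 RPKM in osteoblasts and 0.0601 ± 0.0406 RPKM in chondrocytes (log2 2.69). Sost, an osteocyte gene that PTH represses, was 10.3 ± 3.45 RPKM in osteoblasts and at most 0.0145 RPKM in chondrocytes (log2 3.44). Nr4a3 was 25.1 ± 13.4 RPKM in chondrocytes and 2.40 ± 1.95 RPKM in osteoblasts (log2 -2.96), and Fosb and Csrnp1 were not called. Nr4a, Fos and Sik1 genes also respond to tissue dissociation, and the enzymes differed between the groups, so that cell type and enzyme cannot be told apart. In the growth plate list, 9 of 17 genes were called higher in osteoblasts and 5 in chondrocytes (8 and 6 with that scaling), led by Ibsp (log2 8.22), Mmp13 (6.30) and Alpl (6.15), which are also osteoblast genes. Zfp521 and Bcl2 were not called. The same shares of all tested genes apply to the counts of this list.

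**Figure D5:**
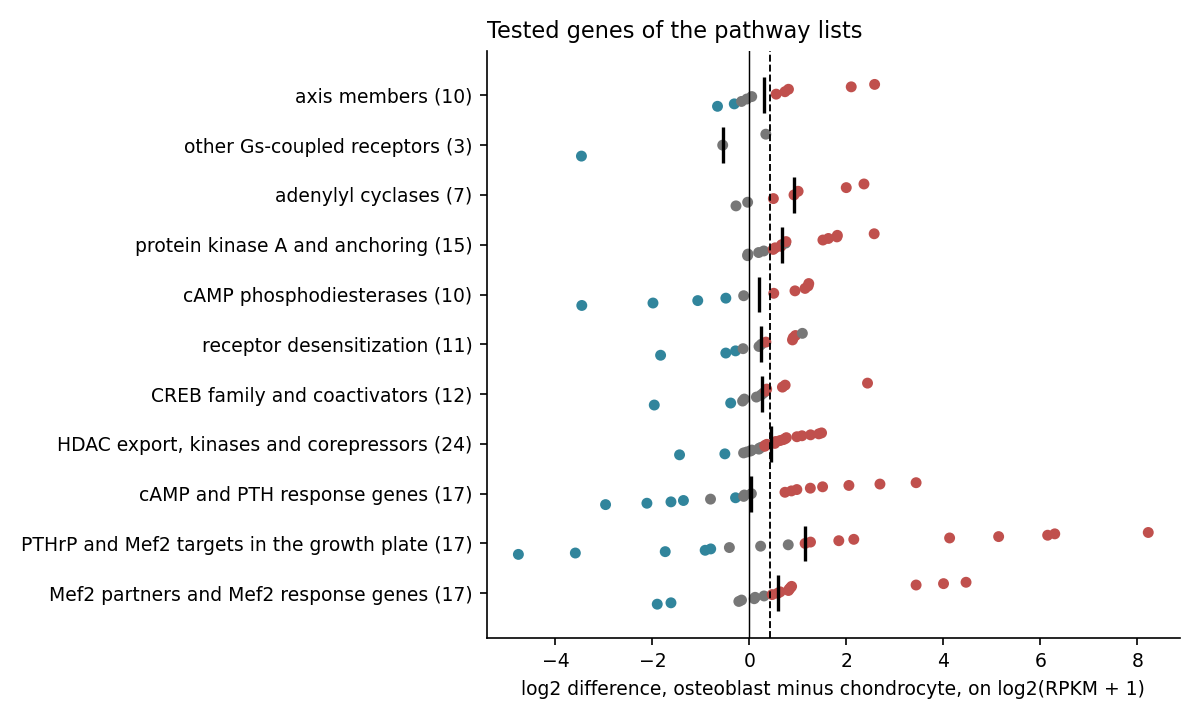
Log2 difference (osteoblast minus chondrocyte, log2(RPKM + 1)) of every tested gene of each list, with the number tested in brackets. Red points were called higher in osteoblasts, blue points higher in chondrocytes and grey points neither; short bars mark list medians and the dashed line marks 0.43, the median of all tested genes.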

How the data were processed

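RNA was measured in 3 osteoblast and 3 chondrocyte libraries, with groups taken from the labels. The authors deposited 1 table of RPKM for 31055 transcripts of 23364 symbols, 4447 of which have several. TopHat2 2.0.8 and build mm9 are given in the submitters' processing notes. The counting program and its use of strand are not given in the sources used here. A transcript without reads is listed at 0.0001. Depth was estimated from the steps of low RPKM values: 58.4% of 16499 values came within 0.05 of whole reads, against 10% by chance, so no count test was run. Of single rows of genes with several transcripts 20.2% were whole, and of their sums 43.1%, so reads were divided between transcripts.

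The 10 members and all lists were chosen with earlier results of these data known. RPKM was summed per symbol, and genes with at least 1 RPKM in at least 3 libraries were tested (11218), two-sided, with limma 3.58.1 in R 4.3.3 (variance trend, robust moderation) on log2(RPKM + 1), which understates changes of low genes. The procedure was tested on simulated data without a shift of most genes between groups, so that test does not bear on scaling. Transcript shares were tested with limma on log2 ratios with an offset of 0.5 RPKM, where the sum was at least 5 RPKM in every library and the mean share above 2%. Start sites were added after seeing the data: transcripts with overlapping first exons in GENCODE M21 (GRCm38), matched by RefSeq identifier for 94.1% of transcripts. Paralog shares were compared by exact permutation. Named genes were all members and relatives, from each list the 3 called genes of largest change without overlap and the 2 uncalled genes of highest level, and the 3 nearest profiles per member. A few genes that this rule takes are not reported here. Single marker genes of other cell types were picked with their values in view. Alternatives were pseudocounts of 0.1 and 5, no filter, a mean of at least 5 RPKM, median-of-ratios and upper-quartile scaling, no trend, a replicate block, 1 transcript per gene, share offsets, and each library left out.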

Additional observations from a re-analysis of the deposited data

How the results depend on the processing

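Pth1r, Mef2c and Hdac5 (higher in osteoblasts), and Gnas as a sum and its Nesp55 and XLαs starts (higher in chondrocytes), kept their direction and call under both scalings and with each library left out; Gnas is the exception under 1 transcript per gene. Mef2d kept its call under both scalings but not with every library left out, and Pthlh stayed uncalled. Scaling moved the calls of Hdac4, Mef2a, Sik1 and Sik2. With either scaling 3 members were called higher in osteoblasts and 4 in chondrocytes. Median-of-ratios and upper-quartile scaling called Hdac4 (-0.59, -0.54) and ended the calls of Mef2a (0.075, 0.13) and Sik1 (0.27, 0.32). They turned Sik2 (-0.36, -0.31), Sik3 (-0.47, -0.42), Crtc2 (-0.32, -0.27), Ywhaz (-0.25, -0.19), Csrnp1 (-0.45, -0.39), Bcl2 (-0.20, -0.15), Jun (-0.39, -0.33) and the Gsα start (-0.37, -0.31) negative, and the first also the middle Pth1r start (-0.015). The lists then held 45 genes higher in osteoblasts and 41 in chondrocytes with the first, and 41 in chondrocytes with the second. The cause was not tested.

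The transcript of highest level alone gave Gnas 0.29 (limma adjusted p = 0.0831), 1 member higher in chondrocytes, a Mef2c share difference of 22.4 points and an Hdac5 share difference of 10.2 points. The Gsα start alone gave 0.14, and the middle Pth1r start alone 0.46. With a share offset of 2 RPKM the Hdac5 transcripts passed the threshold (-0.53 and 0.53), as when osteoblast replicate 3 was left out. With each library left out, 1 to 2 members were higher in chondrocytes. The log2 differences then ran from -0.38 to -0.26 for Mef2d, -0.14 to 0.072 for Pthlh, -0.026 to 0.12 for Sik2, -0.067 to 0.061 for Sik3, -0.11 to 0.036 for Adcy2, -0.15 to 0.038 for Akap11, -0.13 to 0.049 for Ywhaq, -0.19 to 0.29 for Csrnp1, -0.095 to 0.37 for Jun and -0.41 to 0.020 for Klf4. The shares ran from -0.19 to 0.049 for the short Gsα transcript and from -0.74 to -0.44 and 0.44 to 0.74 for the Hdac5 transcripts.

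Same-numbered libraries share only a number: their deviations correlated at 0.0791, 0.00964 and -0.155. The replicate block left Mef2d at -0.31 with adjusted p = 0.0797, so that 1 member was called higher in chondrocytes, and took the calls of response genes higher in chondrocytes from 5 to 3. At 64 to 121 estimated reads, Pthlh allows no small difference to be seen.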
